A study of Drosophila melanogaster with 2 samples.

Results

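The 10 genes described here encode enzymes that make purines, pyrimidines and deoxynucleotides, the building blocks of RNA and DNA. They were taken by symbol from the dm6 gene annotation, out of 13945 annotated protein-coding genes, and all 10 were found. CTPsyn is listed there as Ctps and AdSL as Adsl. The question was where a tagged copy of the transcription factor Mnt sat at these genes. The samples form 1 group of 2 biological replicates and there is no second group to compare, so no p-values are given. Each replicate was chromatin from whole female adults of a transgenic fly line that carries Mnt with eGFP at its C-terminal end, precipitated with an antibody against GFP and sequenced (ChIP-seq). The labels give the age as unknown. What drives the transgene is not given in the sources used here, and libraries from untagged flies or input chromatin were not analysed here. Whole flies hold many tissues, so a weak signal in every cell and a strong signal in few cells cannot be told apart. The peak lists hold no expression values, so sex and stage could not be checked against markers.

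Mnt is a basic helix-loop-helix leucine zipper protein that pairs with Max and represses genes, and Myc-Max dimers, which activate genes, recognise the same DNA letters, the E-box CACGTG. Growing cells need nucleotides for ribosomal RNA and, when they divide, for DNA, and in mammals several genes of nucleotide synthesis are known Myc targets. Purines are built step by step on ribose phosphate up to inosine monophosphate (IMP), which branches into AMP and GMP. Pyrimidines are built as a ring first, up to uridine monophosphate (UMP), from which CTP is made later. Ribonucleotide reductase turns ribonucleotides into deoxyribonucleotides.

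The measurements were regions of enrichment, each with a summit (the position of its maximum) and a signal value as the authors deposited it. The reproducible or "optimal" list held 7451 regions, with signals from 77.1 to 2444 (median 141). Each summit counts as a region here, and 410 of the 7451 share start and end with another. The pooled list and each single-replicate list held 30000 regions and include weak background. A region was taken for a gene when its summit lay within 1 kb of any of the gene's transcription start sites (TSSs) or inside the gene body. The lists give no read counts, so the depth behind each value is unknown. The optimal list is the set of pooled regions with the highest signal, so a gene without an optimal summit may still have weaker pooled regions.

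Mnt-eGFP was found at the starts of 8 of the 10 genes. An optimal summit lay within 1 kb of a TSS at Prat, AdSL, ras, r, Dhod, r-l, CTPsyn and RnrS, and at neither Prat2 nor RnrL. Over all protein-coding genes the share was 41.5%. The same 8 genes had a summit within 250 bp, where the share over all protein-coding genes was 34.1%. They also had one among the 7451 strongest regions of replicate 1 taken alone (42.2% of all protein-coding genes) and of replicate 2 taken alone (37.0%). The 8 genes carried 14 optimal regions, counted by summit, all within 1 kb of a TSS and 11 of them within 250 bp. The summits just inside the 1 kb limit were at CTPsyn (936 bp) and RnrS (764 bp), and the pooled summit just outside it was at r-l (1001 bp, signal 21.9). By annotation, 6 summits fell in a 5′ UTR, 5 in introns, 2 in intergenic sequence and 1 in a non-coding exon.

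The letters under these summits differed from gene to gene. CACGTG lay within 100 bp of an optimal summit at 3 of the 8 genes with one, namely r, r-l and CTPsyn, all of the pyrimidine pathway. Over all 5936 protein-coding genes with an optimal summit by the same rule the share was 13.0%. With a window of 50 bp in place of 100 bp the count was 1, at r-l. The share over all genes at 50 bp is not given, and the 13.0% is for 100 bp only. At 2 genes, r-l and CTPsyn, CACGTG lay within 100 bp of the start itself, against 3.69% of all protein-coding genes. The sequences below are the E-boxes of these 3 genes, and E-box variants or other promoter elements near the summits of 4 further genes, from the RefSeq Release 6 (dm6) genome, read in the direction of the gene, with the motif in capitals. The first is a longer stretch of 141 bases centred on the strongest r summit, intronic throughout.
r (chrX:16655793-16655933, plus strand): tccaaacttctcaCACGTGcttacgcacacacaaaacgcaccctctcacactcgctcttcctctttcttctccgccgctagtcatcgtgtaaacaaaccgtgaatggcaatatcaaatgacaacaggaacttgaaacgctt
r-l, 5′ UTR (chr3R:21073245-21073270, minus strand): gcctagctagCACGTGtgtgaagaat
CTPsyn, 5′ UTR (chr3L:15098205-15098230, plus strand): tttctaaaacCACGTGcagcaaaggc
CTPsyn, intron (chr3L:15099123-15099148, plus strand): gcaacaattgCACGTGttcttgaatc
ras, 5′ UTR, CACGCG (chrX:10745452-10745477, plus strand): tcgcgcagcaCACGCGgcacttggac
Prat, 5′ UTR, CACGCG on the opposite strand (chr3R:7911733-7911758, minus strand): aactgagctgCGCGTGcgagcgtgcg
Prat, upstream, TATCGATA (chr3R:7911795-7911822, minus strand): cacaccgcacTATCGATAtcagcgaccg
AdSL, 5′ UTR, CATGTG (chr3R:17021102-17021127, minus strand): tgccccgccaCATGTGagaacatcgc
AdSL, upstream, GGTCACAC (chr3R:17021118-17021145, minus strand): atcgcaaggcGGTCACACtgccccgcca
Dhod, upstream, CATGCG on the opposite strand (chr3R:8652908-8652933, minus strand): aactatatatCGCATGagttttcctt

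**Figure D1:**
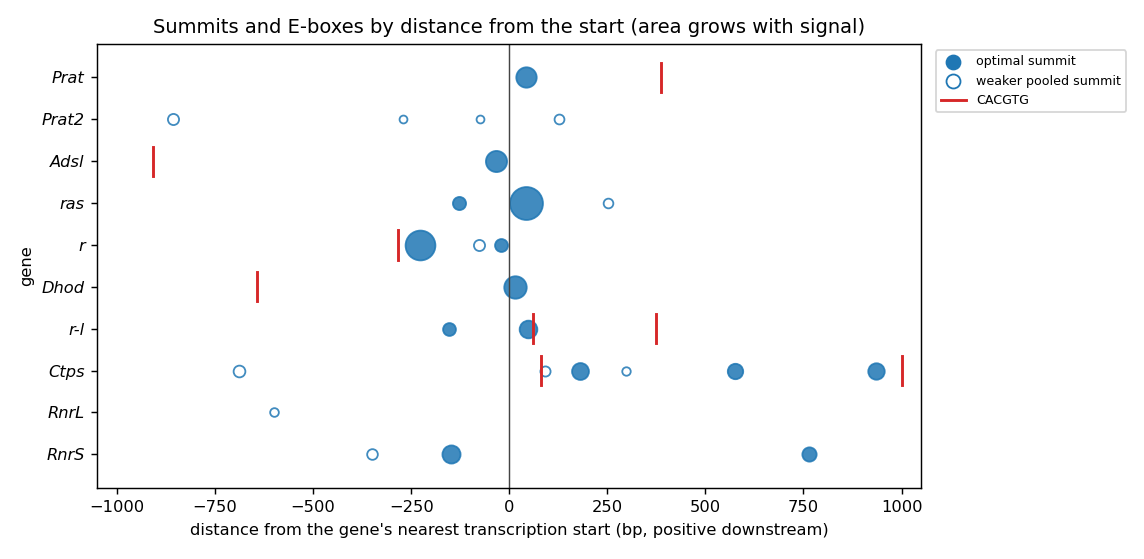
Summits of the pooled list within 1 kb of each gene's nearest TSS (x axis, bp, positive downstream; for a gene with several TSSs each summit is placed by its own nearest one). Filled circles are optimal summits, open circles weaker pooled summits, circle area grows with the deposited signal, and red bars are CACGTG. Of the 14 optimal summits at 8 genes, 11 sit within 250 bp of a start, while Prat2 and RnrL have open circles only.

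Purine synthesis opened with the pair Prat and Prat2, which both encode amidophosphoribosyltransferase, the enzyme of the first committed step. Prat had 1 optimal summit, 42 bp downstream of its TSS in the 5′ UTR (chr3R:7911660-7911872), with a signal of 256 and rank 1388. Replicate 1 gave this region 182 (rank 1373) and replicate 2 gave it 77.6 (rank 1686). Both replicates thus placed it among their strongest 7451 regions at a similar rank. No other gene starts within 1 kb of this summit. The summit lies beside the CACGCG printed above, an E-box variant whose middle is 9 bp from it. TATCGATA, the site of the promoter factor Dref, lies 72 bp upstream of the summit, and the nearest CACGTG lies 388 bp downstream of the TSS, in coding sequence. The position was less shared than the rank. Replicate 2 had its summit 79 bp from the optimal one, in an intron, with CACGCG but not TATCGATA within 100 bp.

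Prat2 had no optimal summit. Its 4 pooled regions had signals from 15.6 to 57.6, all below the lowest optimal signal of 77.1. The strongest was 858 bp upstream of a TSS in intergenic sequence (pooled rank 9785), with 34.3 (rank 11274) in replicate 1 and 19.3 (rank 9918) in replicate 2. A second region, 128 bp downstream of the inner TSS, reached 39.6. Neither replicate had a Prat2 region among its strongest 7451, and no CACGTG lay within 1 kb of either Prat2 start.

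AdSL encodes adenylosuccinate lyase, which acts both on the way to IMP and in the branch to AMP. Its single optimal summit lay 34 bp upstream of the TSS (chr3R:17021042-17021309), with a signal of 278 and rank 1216. AdSL lies inside an intron of Pxd, a gene on the other strand, and no other TSS falls within 1 kb of the summit. The region had 212 (rank 1060) in replicate 1 and 64.4 (rank 2341) in replicate 2, so replicate 1 ranked it higher. GGTCACAC, the core promoter element called Motif 1, lies between the summit and the start, 12 bp upstream of the TSS. The E-box variant CATGTG occurs as 2 overlapping matches, 3 and 5 bp downstream of the TSS, and the nearest CACGTG is 907 bp upstream.

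The strongest region of all 10 genes was at ras (raspberry), which encodes IMP dehydrogenase, the enzyme that sends IMP towards GMP. Its main summit lay 43 bp downstream of the inner of 2 TSSs, in the 5′ UTR (chrX:10745211-10745749), with a signal of 712 and rank 205. The replicates gave 468 (rank 230) and 249 (rank 151), so the gene stood near the top in both. A second, weaker optimal summit (91.1, rank 6264) lay 129 bp upstream of the outer TSS, inside the 5′ UTR of stx, a gene that runs the other way, and 135 bp from the start of a non-coding RNA gene, lncRNA:CR44766. That summit had 63.8 in replicate 1 and 36.4 in replicate 2. No CACGTG lies within 1 kb of either ras start, a property shared with Prat2, RnrL and RnrS. Over all protein-coding genes 27.1% have CACGTG within 1 kb of a start. CACGCG lies 13 bp upstream of the main summit, 30 bp into the transcript, and CATGTG 30 bp downstream of the summit.

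**Figure D2:**
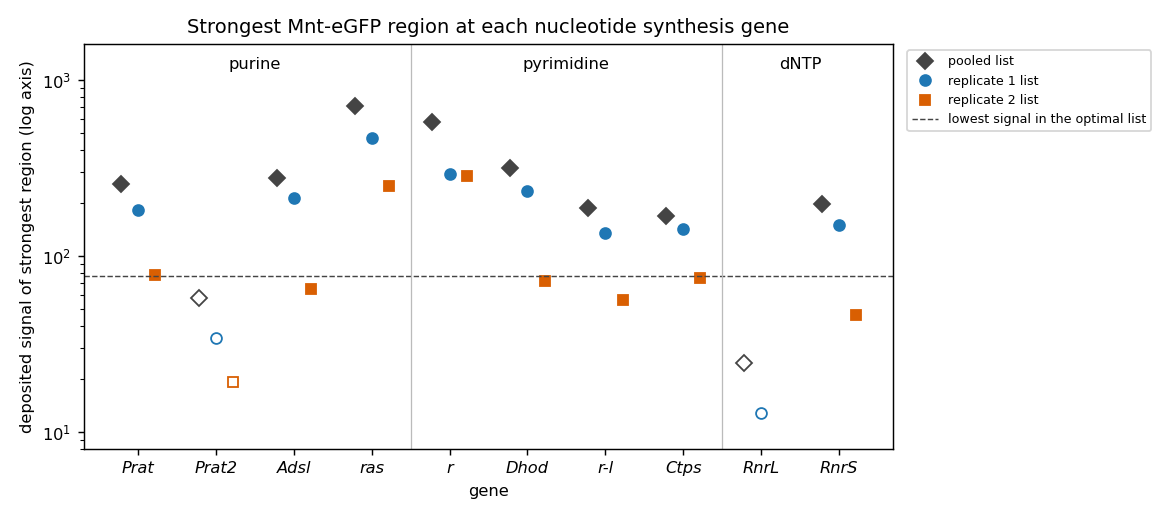
Deposited signal (log axis) of the strongest region at each gene in the pooled list, in replicate 1 and in replicate 2. Filled markers are genes with an optimal summit and open markers are Prat2 and RnrL, and the dashed line is the lowest signal in the optimal list (77.1). The pooled values of ras (712) and r (579) lie highest, and RnrL has no marker for replicate 2 because no region was listed.

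All 4 pyrimidine genes had an optimal summit, and 3 of them had CACGTG within 100 bp of one. Among all protein-coding genes 41.5% had a summit within 1 kb of a TSS. Of those with a summit by the rule, 13.0% had CACGTG within 100 bp. A 50 bp window left only r-l, and 5 of the 7 other purine synthesis genes described below also had CACGTG. The gene r (rudimentary) encodes the multifunctional protein CAD, which catalyses the opening steps of the pathway. Its strongest summit lay in an intron, 228 bp upstream of the innermost of 3 TSSs (chrX:16655571-16656180), with a signal of 579 and rank 301. CACGTG lies 55 bp upstream of this summit, and this is the E-box in the long stretch printed above. The region had 292 (rank 601) in replicate 1 and 285 (rank 102) in replicate 2, a ratio of 1.02. Over the 7272 optimal regions matched in both replicates the median ratio of replicate 1 to replicate 2 was 2.21, and 7.99% of them had a ratio at or below that of r. A second summit of 87.5 (rank 6561), listed with the same start and end, lay 21 bp upstream of the innermost TSS, with a ratio of 0.956. A weaker pooled region of 57.1 lay 77 bp upstream of the outermost r TSS, with the start of Nemp 267 bp away. It was among the strongest 7451 of replicate 1 (66.5, rank 6015), but replicate 2 had only 7.64 (rank 24821) there. Farther inside the gene, weaker pooled regions reached 65.6 at 8536 bp from the nearest r start, where CG15865 starts 172 bp away.

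Dhod encodes dihydroorotate dehydrogenase, the mitochondrial enzyme that oxidises dihydroorotate to orotate. Its single optimal summit lay 14 bp downstream of a TSS (chr3R:8652771-8653044), with a signal of 317 and rank 979, below only ras and r among the 10 genes. Replicate 1 gave it 233 (rank 888) and replicate 2 gave it 72.1 (rank 1931). The divergent gene Sys1 starts 81 bp from the summit, so the region cannot be assigned to Dhod alone. Dhod was the pyrimidine gene without CACGTG near a summit, and its nearest one was 643 bp upstream of a start, in coding sequence. The variant CATGCG lies 19 bp upstream of the summit.

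The gene r-l (rudimentary-like) encodes UMP synthase, which completes UMP. Its main summit lay 47 bp downstream of its TSS (chr3R:21073044-21073499), with a signal of 187 and rank 2436, and CACGTG lay 14 bp downstream of the summit, at 61 bp from the TSS. Among the CACGTG matches of the 10 genes this one lay closest to an optimal summit. The region had 134 (rank 2350) in replicate 1 and 56.1 (rank 2958) in replicate 2. A second optimal summit of 86.1, 154 bp upstream of the TSS in intergenic sequence, overlaps the main region. In replicate 1 a single region overlaps both, with its summit between theirs, 29 bp upstream of the TSS, while replicate 2 listed them apart at 56.1 and 20.6.

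CTPsyn encodes CTP synthase, which makes CTP from UTP and assembles into filaments in fly cells. It had the most optimal regions, 3, spread over the stretch downstream of its second TSS at 181, 575 and 936 bp (chr3L:15098002-15099195 in all). Their signals were 168, 135 and 158, with ranks of 2876, 3917 and 3177. No region of this gene reached the levels of ras or r. The third summit had CACGTG 64 bp downstream of it, in an intron. The E-box of the 5′ UTR, 82 bp downstream of the TSS, had its middle 99 bp from the first summit and so just missed the window. The replicates differed in where they were strongest. In replicate 1 the highest summit was 68 bp downstream of the TSS (142, rank 2117), close to the 5′ UTR E-box. In replicate 2 it was 798 bp downstream (74.4, rank 1813). The third summit is closer to the start of lncRNA:CR43973 (431 bp) than to that of CTPsyn. The third CTPsyn start, shared with CG45071, had no optimal summit within 1 kb. The pooled list held 43.6 at 90 bp downstream of it and 67.5 (rank 8451) at 689 bp upstream, and the upstream region was among the strongest 7451 of replicate 1 (58.0, rank 6904) but not of replicate 2 (14.3).

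For ribonucleotide reductase the small subunit gene RnrS had optimal summits and the large subunit gene RnrL had none. RnrS (chr2R:11983145-11985393, minus strand) had a summit 149 bp upstream of its TSS with a signal of 197 (rank 2228) and a second one 764 bp downstream, in an intron, with 112 (rank 4959). The upstream region was listed at 149 (rank 1932) by replicate 1 and at 46.0 (rank 3904) by replicate 2. The intronic region had 72.0 and 34.4. CG34231 starts 466 bp from the upstream summit. None of the 7 motifs searched lay within 100 bp of either RnrS summit. RnrL (chr2L:10325026-10327943, minus strand) had 1 pooled region, 601 bp upstream of its TSS in a coding exon of Schip1, with a signal of 24.6 (rank 18795). In replicate 1 a region of 12.8 (rank 24549) was listed there and in replicate 2 none. The enzyme needs both subunits, and of their genes RnrS had summits above the lowest optimal signal and RnrL had none.

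Set side by side, the strongest summits of the 8 genes had a median signal of 267 and a range from 168 to 712. The median over all 5936 protein-coding genes with an optimal summit was 176, with quartiles of 117 and 291. The signal of ras exceeded that of 94.7% of those genes and the signal of r that of 92.4%. Dhod exceeded 78.0%, AdSL 73.4%, Prat 70.4%, RnrS 56.6%, r-l 53.6% and CTPsyn 47.2%. The strongest summits lay a median of 45 bp from the nearest TSS, against 115 bp over all such genes. More than 1 optimal summit was found at 5 of the 8 genes, against 38.9% of all such genes.

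The order of the genes was only partly shared by the replicates. In both, ras and r held the highest places, with ras first in replicate 1 and r first in replicate 2. The other 6 genes had strongest signals between 134 and 233 in replicate 1 and between 46.0 and 77.6 in replicate 2. Their order changed, with Dhod at place 3 in replicate 1 and place 5 in replicate 2, and Prat at place 5 in replicate 1 and place 3 in replicate 2. CTPsyn also changed place, above Dhod and AdSL in replicate 2 and below both in replicate 1. Other differences held, with Dhod, AdSL and Prat above r-l and RnrS in both replicates. Prat2 and RnrL came last in each list that held them. All 14 optimal regions overlapped a region in both replicates, as did 7272 of all 7451 optimal regions. Overlap does not mean a shared summit. Both r-l summits were matched to the same replicate 1 region, which gave the second a ratio of 6.54. The CTPsyn summit at 575 bp was matched to a replicate 2 summit 223 bp away, with a ratio of 0.970. Of the 14, 12 were higher in replicate 1. Most optimal regions were, since only 7.99% of all matched ones had a ratio at or below 1.02. The ratio of replicate 1 to replicate 2 had a median of 2.37 over the 14 regions, close to the 2.21 over all matched optimal regions.

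**Figure D3:**
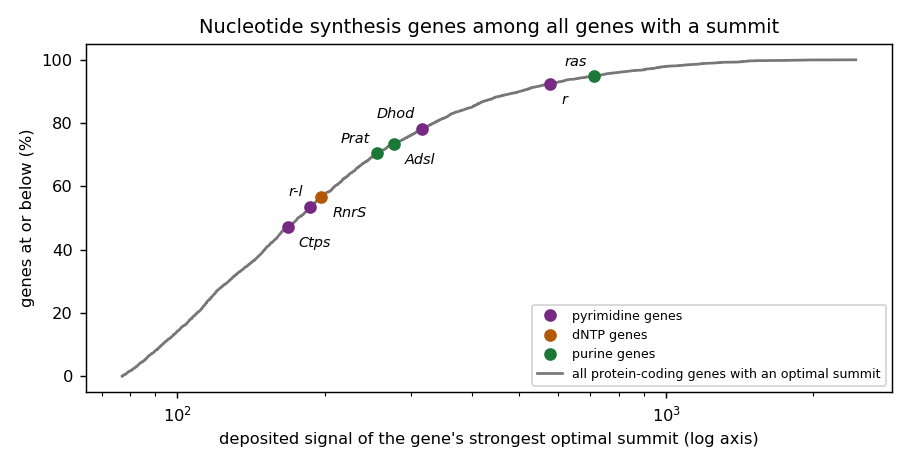
Cumulative share of protein-coding genes with an optimal summit (y axis, %) by the signal of the gene's strongest optimal summit (x axis, log), with the synthesis genes marked on the curve. Points for ras and r lie above 90% of the genes, and CTPsyn lies just under the middle at 47.2%.

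The variants of the E-box and other promoter elements were spread over several genes. CACGCG, read on both strands like all motifs here, lay within 100 bp of 5 of the 14 optimal summits, at Prat, ras, r and CTPsyn, and of 10.03% of all optimal summits. CATGTG lay at 5 of the 14, at AdSL, ras, r, r-l and CTPsyn, and at 14.9% of all. CACGTG itself lay at 3 of the 14 and at 8.64% of all. CATGCG (Dhod), CAGCTG (CTPsyn), TATCGATA (Prat) and GGTCACAC (AdSL) lay at 1 of the 14 each, and at 7.13%, 14.4%, 6.19% and 5.44% of all optimal summits. Within 100 bp of a start, CACGCG occurs at 8.19% and CATGTG at 8.08% of all protein-coding genes. These are matches of letters only.

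Other genes of nucleotide metabolism were counted by their role in the pathway. Of 36 such genes, 25 had an optimal summit within 1 kb of a TSS, beside the 41.5% of all protein-coding genes. In purine synthesis all 7 other genes had one, so that with Prat, Prat2, AdSL and ras the count was 10 of 11. The highest was Adss (adenylosuccinate synthetase, the entry to AMP), with 890 at rank 123, and 630 in replicate 1 and 278 in replicate 2. It was followed by Prps (phosphoribosyl pyrophosphate synthetase, 364), bur (GMP synthetase, 333), Gart (318), Pfas (291) and CG11089 (247), whose summit lies 24 bp from the start of CG31381 and cannot be assigned to it alone. The seventh gene, Paics, had 91.6, and it had no summit within 1 kb among the strongest regions of replicate 1 alone. Paics and Prps had none within 1 kb in the stronger 3726 optimal regions, and bur had none within 500 bp. CACGTG was at 5 of these 7 genes, Prps, bur, Gart, Pfas and CG11089, beside the 13.0% of all protein-coding genes with an optimal summit. It was at none of Prat, AdSL and ras, and 3 genes are too few to set against that share. Prat2 had no optimal summit and could not count. Of the 36 other genes 25 had an optimal summit within 1 kb, and CACGTG was at 8 of these. The remaining 3 were Nmdmc of the one-carbon group and su(r) and DhpD of the breakdown group. It was at no gene of the kinase, salvage and thymidylate groups, which had 5, 3 and 1 genes with a summit. These are few beside a share of 13.0%. Neither ras nor Adss, the purine genes with the highest signals, had CACGTG within 100 bp of an optimal summit. The strongest Prps summit lay inside the gene, 1817 bp from a start.

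Among genes that feed folate carbons into nucleotides, Fpgs1 (823), Nmdmc (414), Shmt (334) and pug (156) had a summit. The summits of Fpgs1, Nmdmc and pug lay 121, 36 and 17 bp from the start of another gene (CG1463, Rel and CG14683). In the thymidylate group Ts, the thymidylate synthase gene, and dnk, the deoxynucleoside kinase gene, had none, and dUTPase had 287 with the start of Art8 95 bp away.

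Among nucleotide kinase genes awd (513), Cmpk (357), Ak3 (202) and Ak1 (89.1) had one, and nmdyn-D6 had none. The Ak1 region had no match in replicate 2. All 3 genes listed under salvage had one, kri (1094), Adk2 (498) and Aprt (83.2). The Aprt region had 69.8 in replicate 1 and 14.9 in replicate 2, where Aprt had no summit within 1 kb among the strongest 7451 regions. The kri summit lies 12 bp from a start of the kinase gene S6k, so its high signal cannot be assigned to kri alone. In the breakdown group the count was 5 of 12, with su(r) (283), ry (238), DhpD (202), AMPdeam (196) and Ada (142), and with no optimal summit at Uro, pyd3, CRMP, Adgf-A2, veil and CG16758. Adgf-A had one inside the gene (123), 9801 bp from a TSS, and none within 1 kb. For veil, each replicate alone had a summit within 1 kb of a TSS among its strongest 7451 regions. The Ada summit lies 67 bp from the start of beag. The group includes ry, the xanthine dehydrogenase gene, and Uro, the urate oxidase gene, which follow each other in purine breakdown. The share of the breakdown group, 5 of 12, is near the 41.5% of all protein-coding genes. Differences between the roles were not tested.

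**Figure D4:**
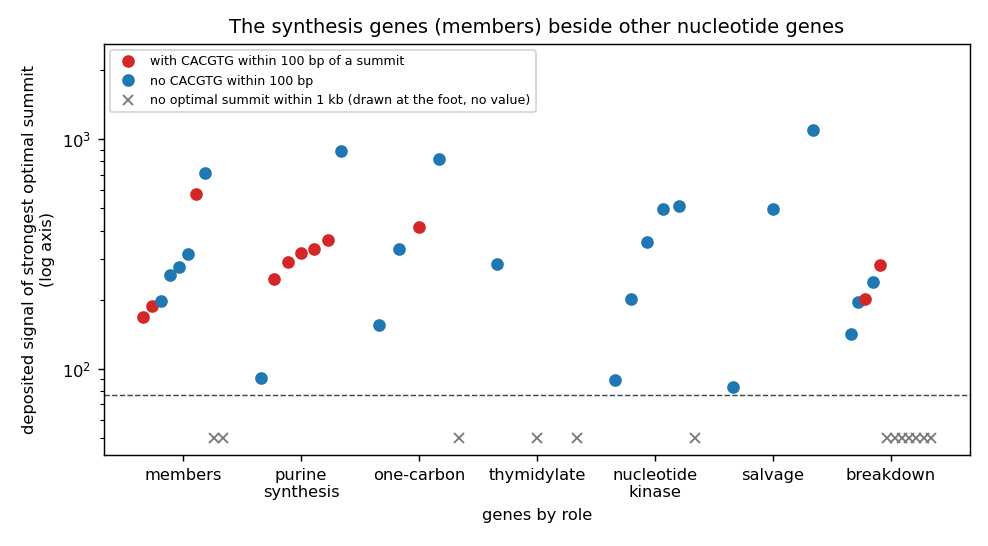
Deposited signal of the strongest optimal summit (log axis) for the 10 synthesis genes (members, left) and 36 other genes of nucleotide metabolism by role. Red points have CACGTG within 100 bp of an optimal summit, blue points have none, and crosses at the foot are genes with no optimal summit within 1 kb, drawn without a value. Adgf-A is such a cross, although it has an optimal summit of 123 inside the gene. The Prps point (364) is a summit inside the gene, 1817 bp from a start. The 7 other purine synthesis genes all lie above the dashed line, the lowest signal in the optimal list, and 5 of them are red.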

How the data were processed

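The authors deposited peak lists on dm6 (per the labels) for replicate 1, replicate 2, both pooled (from both alignments, per the deposited notes), and an optimal list named by its deposited file as passing the irreproducible discovery rate (IDR). The deposited signal of a region has no stated unit. The deposited −log10 q-value is capped and stands at 4.22 for the optimal regions described, so signal alone was used. No sources used here give the peak caller, the aligner or the scaling of the signal. Depth is unknown, so no counting interval is given. The 4 dm3 lists were not used, since the genome given is dm6.

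Genes, 35497 transcripts in all, came from Ensembl release 115 on Release 6, without transposable elements. Of the 10 genes 2, and of the 36 other genes 9, carry a newer symbol there. The genes, gene lists and motifs were chosen with earlier results of these data known. Named genes were all 10, up to 6 of each role with the highest signal, and every gene without a summit, except that 2 of the 36 other genes are counted in the totals and not reported here. Regions within 1 kb of a TSS and regions inside the gene body were both taken. Summits are column 2 plus column 10, and positions in the text are 1-based. A motif counts when all its letters lie within 100 bp of the summit. An optimal region was matched to the overlapping replicate region with the nearest summit. A search for summits near starts, and the search for CACGTG, its variants and CAGCTG, were checked on planted data first. The step that took regions for each gene was not itself run on planted data, and TATCGATA and GGTCACAC were not planted. Calculations used Python 3.11.15, numpy 2.4.6 and pandas 2.3.3, and figures matplotlib 3.10.9.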

Additional observations from a re-analysis of the deposited data

How the results depend on the processing

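No paired analysis was possible because there is 1 group only. The count of 8 synthesis genes with a summit was the same at 500 bp (38.1% of all protein-coding genes), 250 bp (34.1%), with protein-coding transcripts only (41.5%) and in the stronger 3726 optimal regions (26.4%), and was 8 with either replicate alone. It was 7 for summits inside the gene (19.1%; AdSL was lost) and 10 with the whole pooled list (67.9%). The count of 25 other genes ranged from 18 inside the gene to 33 in the pooled list. It was 25 with replicate 1 alone and 24 with replicate 2 alone. Either replicate alone added veil, while replicate 1 alone lost Paics and replicate 2 alone lost Ak1 and Aprt. The count was 23 of 35 with 3 listed symbols read as their current genes, an alternative chosen after seeing the data. The count of 3 genes with CACGTG was 1 with a 50 bp window (r and CTPsyn were lost), 2 for summits within 500 bp of a TSS, 3 for the other windows and 3 with either replicate alone. Shares over all genes are not given for these CACGTG settings, so the counts show only how the members changed. The median strongest signal of 266.9 was 197.1 in replicate 1 alone and 73.24 in replicate 2 alone, and the scales of the lists differ. Depth was not given, and genes in few cells of a whole fly may lie below these lists' limits.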
